A study of Mus musculus with 4 samples.

Results

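The genes described here carry long-chain fatty acids into the liver cell, bind them in the cytosol and join them to coenzyme A. The set was fixed by gene symbol and holds 8 genes: Cd36, Slc27a2 and Slc27a4 for uptake, Fabp1 for binding, and Acsl1, Acsl3, Acsl4 and Acsl5 for activation. All 8 were found in the deposited count table of 54532 genes, and all 8 passed the filter on low counts that left 13403 genes for testing. Messenger RNA was sequenced from the livers of C57BL/6 mice, an inbred strain. The 2 libraries labelled HFD (334 and 335), letters that usually stand for a high-fat diet in liver studies, were compared with the 2 labelled HFD+I3A (303 and 305), called I3A here. I3A is named by this abbreviation alone, and no dose, duration, age or sex is given in the labels used here. Both groups carried HFD, so a liver without HFD was not analysed here. The series title asks about mitochondrial respiration in a model of fatty liver disease.

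Fatty acids reach hepatocytes from plasma albumin and from lipoproteins. CD36, a scavenger receptor of the plasma membrane, and the fatty acid transport proteins encoded by the Slc27a genes help them enter, and the liver fatty acid binding protein encoded by Fabp1 holds them in solution in the cytosol. Long-chain acyl-CoA synthetases, encoded by the Acsl genes, then turn them into acyl-CoA, the form that is oxidised, esterified or elongated. Several of these genes are known targets of PPAR-alpha, the nuclear receptor that senses fatty acids in liver. Hepatic Cd36 is known to be low in lean mice and to increase in fatty liver.

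The libraries held between 15005668 and 18255623 counts. Levels in CPM, the read counts relative to library size, were scaled between libraries by TMM, and 1 count was worth between 0.0580 and 0.0649 CPM. Sums of marker genes were scaled by library totals instead. Marker genes of hepatocytes summed to between 85543 and 94850 CPM, with 0 of the 6 at 0 counts in any library. HFD 335 stood apart: its 10 skeletal muscle markers summed to 894 CPM against 0.866 to 0.895 CPM in the other libraries, its 8 exocrine pancreas markers to 130 CPM against 0.533 to 1.86 CPM, and its 6 adipocyte markers to 71.5 CPM against 7.73 to 11.6 CPM. Between 6 and 9 of the muscle markers, 3 and 7 of the pancreas markers and 3 or 4 of the adipocyte markers were at 0 counts in those other libraries. Most of the adipocyte sum there came from Adrb3, with 105 to 178 counts against 144 in HFD 335. Adipoq, Plin1, Cfd, Lep and Retn had 0 to 8 counts each in those other libraries. HFD 335 also had the highest sums for endothelium (252 CPM) and stellate cells (370 CPM). In the stellate list Des held 1738 counts in HFD 335, against 39 to 62 elsewhere. I3A 305 had the lowest sums for endothelium (7 markers, 68.5 CPM against 152 to 252 CPM) and for stellate cells (6 markers, 48.6 CPM against 137 to 370 CPM). The labels do not say that each library is a separate animal, so p-values measure the spread between these libraries, which may be technical.

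The stretches ahead of the transcription start are shown for Cd36 and Acsl4, which had the smallest p among the lower and the higher genes of the set, and for Fabp1, the gene with the highest level. They come from RefSeq on build GRCm38.p6, where all 8 genes matched, and run 5′ to 3′ on the gene's strand outside annotated exons. Capitals mark AGGTCA, the core element of PPAR and related nuclear receptors, and AGGNCANAGGNCA, a pair of such elements spaced by a base as PPAR and RXR bind them, on either strand. A match is a description of letters, not of binding.
Cd36, chr5:17835897-17836146, minus strand: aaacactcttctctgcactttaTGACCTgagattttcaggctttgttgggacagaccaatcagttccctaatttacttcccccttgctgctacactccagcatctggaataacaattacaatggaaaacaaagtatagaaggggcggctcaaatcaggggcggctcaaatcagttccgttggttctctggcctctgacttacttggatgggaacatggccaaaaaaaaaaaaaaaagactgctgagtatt
Fabp1, chr6:71199629-71199826, plus strand: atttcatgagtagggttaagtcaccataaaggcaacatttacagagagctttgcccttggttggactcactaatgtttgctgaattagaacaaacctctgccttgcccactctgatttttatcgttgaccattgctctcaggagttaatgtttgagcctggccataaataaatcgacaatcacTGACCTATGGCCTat
Acsl4, chrX:142390536-142390785, minus strand: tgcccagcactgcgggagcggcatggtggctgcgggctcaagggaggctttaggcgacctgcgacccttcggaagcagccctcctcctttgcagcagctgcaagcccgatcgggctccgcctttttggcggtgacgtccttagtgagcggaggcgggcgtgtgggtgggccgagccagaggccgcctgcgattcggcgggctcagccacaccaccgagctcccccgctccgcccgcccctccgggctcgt
In Fabp1 the pair reads TGACCTATGGCCT on the gene's strand and lies 67 to 55 bases ahead of the start. That motif was found in 0.381% of the 32851 RefSeq windows of 300 bases and in 1 of the 9 windows of these genes, that of Fabp1. The single element overlaps it and also lies 9 to 4 bases ahead of the Fabp1 start. In Cd36 it lies 228 to 223 bases ahead of the start, and in Slc27a2 220 to 215 bases. These are RefSeq starts, and for Fabp1, Cd36 and Slc27a2 they lie inside the gene positions given below. By those positions the elements of Cd36 (chr5:17836119-17836124) and Slc27a2 (chr2:126552804-126552809) lie inside the gene. So does the element nearest the Fabp1 start (chr6:71199870-71199875). The single element was found in 16.3% of all windows and in 3 of these 9. The Acsl4 stretch holds neither and is 70.8% G and C, against 43.2% for Cd36 and 41.4% for Fabp1. Cd36 has 6 annotated coding transcripts with several starts, and gene counts do not show which start was used.

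**Figure D1:**
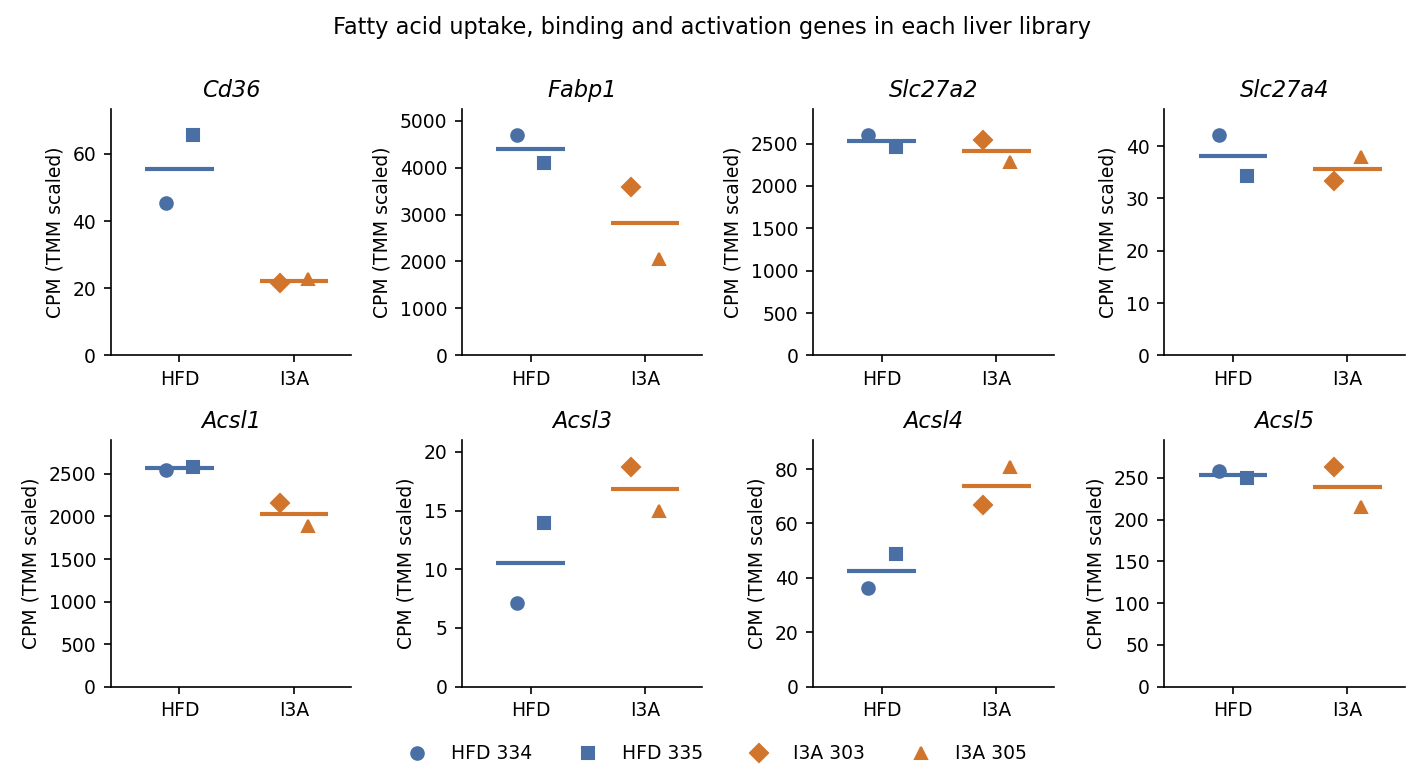
Level of each gene in CPM (vertical axis, linear from 0, TMM scaled) in the 2 HFD and 2 I3A libraries; each symbol is a library and each bar a group mean. Cd36 sits between 21.6 and 22.8 CPM in I3A and at 45.3 and 65.4 CPM in HFD, while Slc27a2 stays between 2286 and 2595 CPM in all 4 libraries.

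Levels differed widely among the genes. To set genes side by side, CPM were divided by the gene length in kilobases that the table gives (RPKM). Fabp1 led with 7942 RPKM in HFD and 5094 RPKM in I3A livers on average, the 12th highest of all tested genes over both groups. Slc27a2 followed with 673 and 642 RPKM, then Acsl1 with 245 and 193 RPKM and Acsl5 with 52.1 and 49.2 RPKM. None of these 4 overlapped with its neighbour in this order in any library. The order of the lower genes differed between the groups. In HFD livers Cd36 (12.6 and 18.2 RPKM) stood above Slc27a4 (9.52 and 7.77 RPKM) and Acsl4 (6.69 and 9.04 RPKM), whose values overlapped. In I3A livers Acsl4 (12.4 and 15.0 RPKM) stood above Slc27a4 (7.54 and 8.59 RPKM), and Cd36 (6.01 and 6.35 RPKM) came after both. Acsl3 had the lowest level in every library, from 1.64 to 4.30 RPKM. The length given for Acsl1 (10483 bases) counts all its annotated exons. With the principal coding transcript of 3897 bases instead, an alternative added after the data were seen, Acsl1 reached 485 to 663 RPKM and Slc27a2 783 to 889 RPKM, in the same order.

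Cd36 was lower in both I3A livers than in both HFD livers. It is encoded on chromosome 5 (17781690 to 17888801, minus strand). HFD 334 held 697 counts (45.3 CPM) and HFD 335 1081 counts (65.4 CPM), whereas I3A 303 held 336 counts (21.6 CPM) and I3A 305 393 counts (22.8 CPM). The I3A livers were close to each other and the HFD livers were 1.45-fold apart. The mean was 2.50-fold lower in I3A livers (55.4 ± 14.3 CPM in HFD and 22.2 ± 0.856 CPM in I3A, SD, n = 2; 95% interval of the fold 1.79 to 3.48). On the log2 scale the difference was -1.32 ± 0.19 (SE). In edgeR's quasi-likelihood test it ranked 54th of 13403 genes (unadjusted p = 0.000652), and its Benjamini-Hochberg adjusted p of 0.158 did not pass 0.05. DESeq2 gave an adjusted p of 7.57e-06. In edgeR it was 0.00331 without HFD 334, which leaves HFD 335 as the one HFD library, and 0.0802 without HFD 335. Over all 12 alternative settings the adjusted p ran from 7.57e-06 to 0.580 and the sign stayed negative.

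Cd36 is also made by endothelium, macrophages, adipocytes and muscle, and in whole liver RNA fewer cells of a type cannot be told apart from less RNA per cell. HFD 335, with the highest Cd36, held the skeletal muscle, pancreas and adipocyte transcripts named above. Without that library the log2 difference was -1.03, a 2.04-fold lower level in I3A, and it did not pass (edgeR adjusted p = 0.0802). All 7 endothelial markers had negative log2 differences, as did 6899 of the 13403 tested genes. At an edgeR unadjusted p under 0.05 stood 2 of the 7, where 6.24% of all tested genes were lower. The sums of these markers were 167 and 252 CPM in HFD and 152 and 68.5 CPM in I3A. Kupffer cell and macrophage markers summed to 147 and 138 CPM in HFD and to 175 and 159 CPM in I3A. Of these, 8 of 9 had positive log2 differences, as did 6504 of the 13403 tested genes. At an edgeR unadjusted p under 0.05 stood 2 of the 9, both higher, where 6.66% of all tested genes were higher. The 5 markers of recruited macrophages summed to 60.3 CPM in HFD 335 and 58.5 CPM in I3A 305, against 30.9 CPM in HFD 334 and 29.9 CPM in I3A 303. Most of each sum came from Spp1 (424 and 775 counts in HFD, 420 and 1036 in I3A). Trem2, Gpnmb, Ccr2 and Ly6c2 held 13 to 107 counts each in HFD 335 but 0 to 12 in I3A 305. In HFD 334 they held 5 to 17 counts and in I3A 303 5 to 20. The part of these cell types in the Cd36 difference was not tested.

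**Figure D2:**
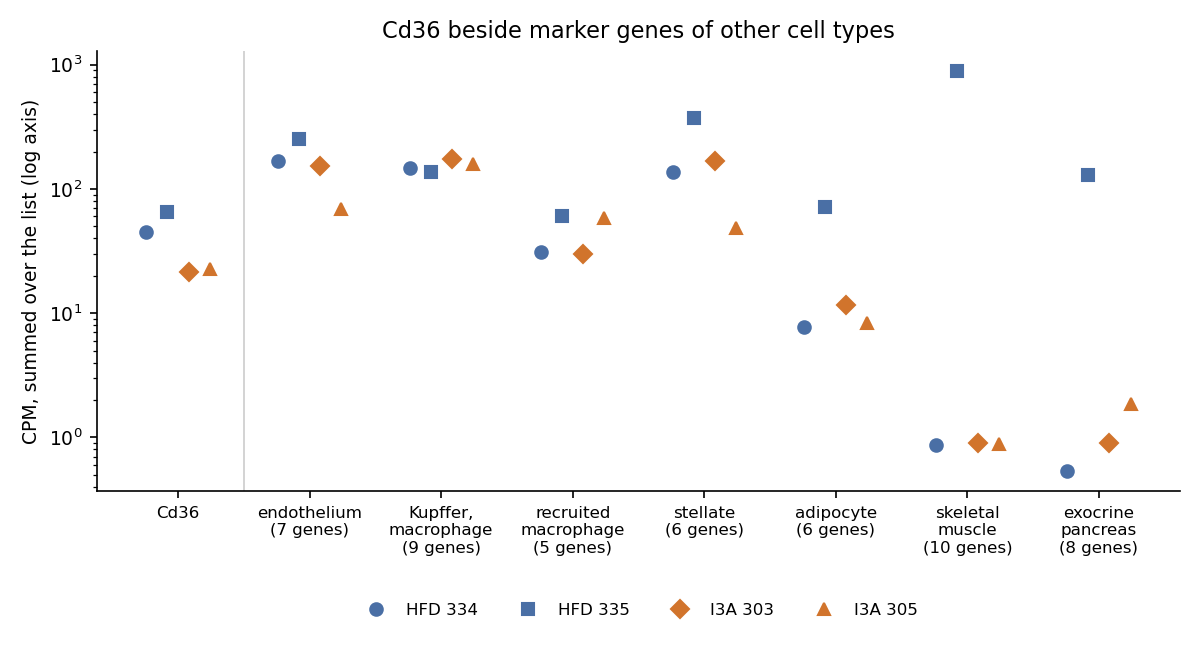
Cd36 in CPM (TMM scaled) beside the summed CPM of marker genes of other cell types (scaled by library totals), 1 symbol per library. The vertical axis is logarithmic. HFD 335 stands out for skeletal muscle (894 CPM), exocrine pancreas (130 CPM) and adipocytes (71.5 CPM), and Cd36 is higher in both HFD than in both I3A libraries.

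The fatty acid transport proteins showed no such gap. Slc27a2 encodes FATP2, a transporter that also activates very long-chain fatty acids, and lies on chromosome 2 (126552407 to 126588243, plus strand). It measured 2595 and 2457 CPM in HFD and 2538 and 2286 CPM in I3A livers, so the groups overlapped. The log2 difference was -0.067 ± 0.13 (SE), with a 95% interval from -0.38 to 0.25 (edgeR adjusted p = 0.856). Slc27a4 encodes FATP4 on the same chromosome (29802634 to 29817522, plus strand). It measured 42.0 and 34.3 CPM in HFD and 33.3 and 37.9 CPM in I3A livers, again with overlap. Its log2 difference was -0.099 ± 0.14 (SE), with a 95% interval from -0.45 to 0.26 (edgeR adjusted p = 0.803). These intervals hold changes of up to 1.30-fold lower for Slc27a2 and 1.37-fold lower for Slc27a4, and 1.19-fold higher for either, so differences within those bounds could not be resolved with 2 libraries a group. Per length, Slc27a2 made up 67.2% to 70.2% and Slc27a5, the bile acid and very long-chain acyl-CoA synthetase (named after its values were seen), 28.5% to 31.5% of the summed level of the 6 Slc27a genes in each library. Slc27a4 made up 0.769% to 0.967%. The ratio of Slc27a2 to Cd36, both per length, was 54.8 and 35.9 in HFD and 113 and 95.9 in I3A libraries.

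Fabp1 was lower in both I3A livers, but unevenly so. It lies on chromosome 6 (71199827 to 71205023, plus strand) and held 72092 and 67760 counts in HFD (4682 and 4102 CPM) and 55764 and 35425 counts in I3A (3580 and 2054 CPM). The groups did not overlap, yet the I3A livers were 1.74-fold apart, more than the 1.56-fold between the group means (4392 ± 410 CPM in HFD and 2817 ± 1079 CPM in I3A, SD, n = 2). The log2 difference was -0.64 ± 0.28 (SE) and did not pass (edgeR unadjusted p = 0.0622, adjusted p = 0.408). The unadjusted p was 0.00862 in DESeq2 and 0.0452 in limma-voom, and the adjusted p 0.150 and 0.387. The log2 difference was -0.30 without I3A 305 and -1.08 without I3A 303, so its size rests on I3A 305. Fabp1 made up 96.6% to 98.3% of the summed level per length of the 7 Fabp genes measured (Fabp1 to Fabp7). That sum was 8617 and 7557 RPKM in HFD and 6638 and 3846 RPKM in I3A libraries.

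Among the long-chain synthetases Acsl1 was lower and Acsl4 higher in I3A livers. Acsl1, the main isoform of liver (chromosome 8, 46471037 to 46536051, plus strand), measured 2545 and 2585 CPM in HFD and 2159 and 1892 CPM in I3A livers. The HFD livers differed by 1.02-fold, the I3A livers by 1.14-fold, and the groups by 1.27-fold without overlap. Its log2 difference was -0.34 ± 0.13 (SE; edgeR unadjusted p = 0.0414, adjusted p = 0.366), and between -0.42 and -0.25 with single libraries left out. With other scalings the edgeR unadjusted p of Acsl1 ran from 0.0246 (library totals) to 0.0504 (upper quartile).

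Acsl4, an isoform that prefers arachidonic acid and supplies membrane phospholipids prone to peroxidation (chromosome X, 142317993 to 142390535, minus strand), held 557 and 807 counts in HFD and 1040 and 1395 counts in I3A libraries. That is 36.2 and 48.9 CPM in HFD and 66.8 and 80.9 CPM in I3A livers, with every I3A value above every HFD value. The mean was 1.74-fold higher in I3A (42.5 ± 8.97 and 73.8 ± 9.97 CPM, SD, n = 2; 95% interval 1.27 to 2.37). The log2 difference of 0.80 ± 0.18 (SE) had an edgeR unadjusted p of 0.00525 and an adjusted p of 0.238. DESeq2 gave an adjusted p of 0.0140. Over the 12 alternative settings the adjusted p ran from 0.00637 to 0.864, and the difference was positive in all 12, lowest at 0.61 without HFD 334 and highest at 1.03 without HFD 335. Kupffer cells and other macrophages are known to express Acsl4 as well. The sums of Kupffer cell and macrophage markers given above were higher in both I3A libraries, whereas those of recruited macrophages were not. The part of these cells was not tested.

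Acsl5, an isoform of mitochondria and endoplasmic reticulum (chromosome 19, 55251938 to 55297720, plus strand), overlapped between the groups at 258 and 249 CPM in HFD and 263 and 215 CPM in I3A livers. Its log2 difference was -0.084 ± 0.13 (SE), with a 95% interval from -0.40 to 0.23 (edgeR adjusted p = 0.815). Exons of Acsl5 overlap those of Zdhhc6 on the opposite strand, which held 29.4% as many counts. Acsl3, an isoform of lipid droplets and endoplasmic reticulum (chromosome 1, 78657825 to 78707743, plus strand), had the fewest counts: 110 and 230 in HFD and 292 and 258 in I3A libraries, or 7.14 and 13.9 against 18.7 and 15.0 CPM. The groups did not overlap, but the HFD livers were 1.95-fold apart, more than the 1.60-fold between group means. The log2 difference of 0.67 ± 0.33 (SE) did not pass (edgeR adjusted p = 0.453) and was 0.29 without HFD 334 and 1.24 without HFD 335. Acsl3 shares exon sequence with Utp14b on the same strand, which measured 3.77 and 4.96 CPM in HFD and 8.28 and 7.88 CPM in I3A livers. The assignment of reads in shared exons is not stated in the labels or notes, so the value of Acsl3 is uncertain to that extent.

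The makeup of the synthetase family is given as a description, with no test of its own. Per length, Acsl1 made up 79.8% and 79.5% of the summed Acsl level (Acsl1, Acsl3, Acsl4, Acsl5 and Acsl6) in HFD and 74.4% and 74.2% in I3A libraries. Acsl4 made up 2.20% and 2.91% in HFD and 4.46% and 6.16% in I3A libraries, and Acsl3 0.539% and 1.03% against 1.55% and 1.41%. Acsl5 held 17.4% and 16.5% against 19.6% and 18.2%. Acsl6, known from brain and testis, had at most 3 counts in a library. The summed level was 304 and 310 RPKM in HFD and 277 and 243 RPKM in I3A libraries. Expressed as a ratio per length, Acsl1 exceeded Acsl4 36.3-fold and 27.3-fold in HFD and 16.7-fold and 12.1-fold in I3A libraries. These values depend on the lengths used. With principal transcript lengths that ratio was 95.3 and 71.7 in HFD and 43.8 and 31.7 in I3A libraries. The share of Acsl4 among Acsl1, Acsl3, Acsl4 and Acsl5 was then 0.948% and 1.26% in HFD and 2.0% and 2.76% in I3A libraries, in the same order. That of Acsl1 was 90.4% and 90.3% against 87.5% and 87.4%, and that of Acsl5 8.40% and 8.0% against 9.79% and 9.13%.

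**Figure D3:**
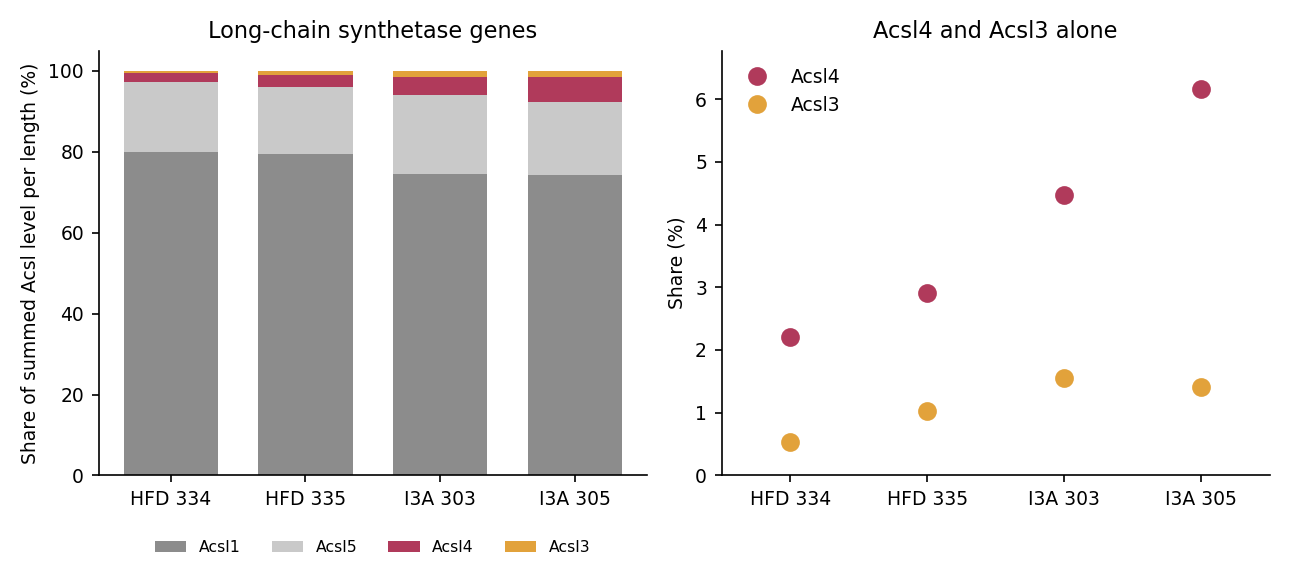
Share of each long-chain synthetase gene in the summed Acsl level per length (vertical axes, percent) in the 4 libraries; stacked bars show Acsl1, Acsl5, Acsl4 and Acsl3, and the right panel Acsl4 and Acsl3 alone. The Acsl4 share is 2.20% and 2.91% in HFD and 4.46% and 6.16% in I3A libraries.

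Of the 8 genes, 0 passed an edgeR adjusted p of 0.05, as did 0% of all tested genes. At an unadjusted p under 0.05 stood 3 of the 8 (Acsl4 higher, Cd36 and Acsl1 lower), where 12.9% of all tested genes did, 6.66% higher and 6.24% lower. DESeq2 called 2 of the 8 at an adjusted p of 0.05, Cd36 and Acsl4, and 3.34% of the genes for which it gave an adjusted p. At an unadjusted p under 0.05 DESeq2 and limma-voom each had 4 of the 8, the 3 of edgeR and Fabp1. Beside these stood 9.93% and 12.5% of all genes. After adjustment limma-voom called 0 of the 8 and 0% of all genes. The groups did not overlap for 5 of the 8 genes, 2 higher and 3 lower, where 45.5% of all tested genes did not overlap, 23.1% higher and 22.5% lower. The median log2 difference was -0.092 over the 8 genes and -0.010 over all tested genes. An exact permutation test of a single gene in 2 against 2 libraries cannot go below p = 0.333 (2-sided), so these calls lean on the spread shared across genes.

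**Figure D4:**
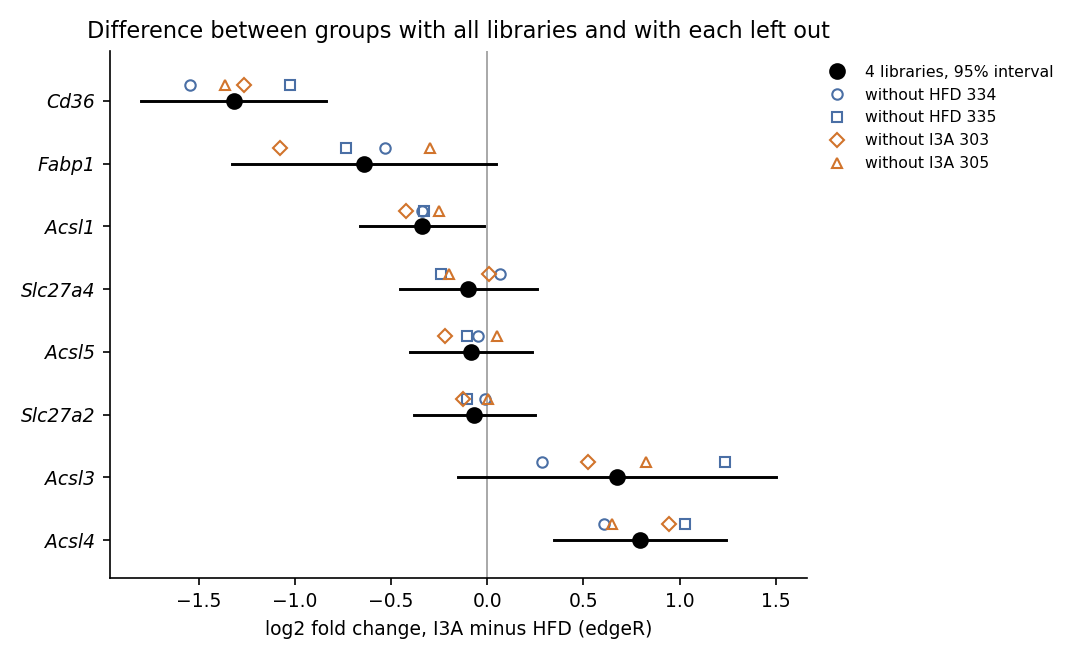
Log2 fold change of I3A minus HFD for each gene (horizontal axis, edgeR); filled circles with bars are all 4 libraries with the 95% interval, and open symbols the fits with 1 library left out. With 1 library left out, Cd36 (-1.55 to -1.03) and Acsl4 (0.61 to 1.03) keep their side of 0. So do Fabp1 (-1.08 to -0.30), Acsl1 (-0.42 to -0.25) and Acsl3 (0.29 to 1.24), whereas Slc27a2, Slc27a4 and Acsl5 cross it.

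Other genes of fatty acid handling, listed by role with earlier results of these data known, gave 0 calls at an edgeR adjusted p of 0.05 in each of the 5 lists, as limma-voom did, whereas DESeq2 called Dgat2 and Ppargc1a. Counts at an unadjusted p under 0.05 stand here beside 12.9% of all tested genes with every library. Over all genes tested that share was 14.7% without HFD 334 (4.88% higher and 9.81% lower), 10.1% without HFD 335, 11.2% without I3A 303 and 5.44% without I3A 305. Among 12 other uptake genes, 11 were tested and 2 had an unadjusted p under 0.05, both lower in I3A, where 6.24% of all tested genes were. The count was 1 higher and 4 lower without HFD 334, 1 and 1 without HFD 335, 0 and 2 without I3A 303, and 0 and 1 without I3A 305. Lipc, the hepatic lipase, measured 176 and 168 CPM in HFD and 138 and 104 CPM in I3A livers (log2 difference -0.51 ± 0.15, SE). Vldlr, a lipoprotein receptor, measured 0.974 and 4.18 CPM in HFD and 0.770 and 0.290 CPM in I3A livers. Its log2 difference was -0.88 without HFD 335 (edgeR unadjusted p = 0.35). The lysolipid transporter Mfsd2a, next by p, measured 130 and 78.6 CPM in HFD and 142 and 152 CPM in I3A. The median of this list was -0.51 with every library. It was -0.70 without HFD 334, 0.035 without HFD 335, -0.55 without I3A 303 and -0.32 without I3A 305. In HFD 335 Lpl, the lipoprotein lipase of muscle and fat, had 913 counts against 139 to 208 elsewhere. The muscle binding protein gene Fabp3 had 48 counts there against 0 to 2. Both were singled out after their values were seen. The part of the muscle, pancreas and adipocyte transcripts of HFD 335 in this list was not tested.

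Among 13 other binding genes, 10 were tested and 0 had an unadjusted p under 0.05 (median 0.054); 2 did without HFD 334 and 1 without I3A 305. The binding protein gene of adipocytes, Fabp4, measured 7.21 and 54.6 CPM in HFD and 10.4 and 4.64 CPM in I3A livers, high in HFD 335 alone. Dbi, the acyl-CoA binding protein that carries the product of the synthetases, measured 433 and 427 CPM in HFD and 527 and 432 CPM in I3A livers, and the peroxisomal Acbd5 301 and 271 against 338 and 307 CPM. Among 13 other acyl-CoA synthetase genes, 8 were tested and 1 had an unadjusted p under 0.05 (median 0.028). That was Acss2, which activates acetate in the cytosol, with 42.7 and 50.6 CPM in HFD and 71.8 and 63.0 CPM in I3A livers (log2 difference 0.53 ± 0.13, SE). Acss1, named after its values were seen, was too low to test with every library (1 and 36 counts in HFD, 2 and 3 in I3A). Its log2 difference was -3.76 without HFD 334, which leaves HFD 335 as the one HFD library. Acsf3 and Acsf2, next by p, differed by 0.11 and -0.096 on the log2 scale.

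The 16 genes whose products use acyl-CoA first were tested in 14 cases, with 3 higher and 1 lower at an unadjusted p under 0.05 (median -0.064), where 6.66% of all tested genes were higher and 6.24% lower. The count was 2 and 1 without HFD 334, 1 and 1 without HFD 335, 2 and 2 without I3A 303, and 3 and 1 without I3A 305. Dgat2, which completes triglyceride synthesis, measured 531 and 488 CPM in HFD and 341 and 365 CPM in I3A livers (log2 difference -0.53 ± 0.11, SE; adjusted p = 0.214 in edgeR and 0.00328 in DESeq2). Dgat1, the other enzyme of that step (named after its values were seen), measured 22.1 and 20.0 CPM in HFD and 26.1 and 26.3 CPM in I3A livers. Cpt1a, which commits acyl groups to mitochondrial oxidation, measured 815 and 797 CPM in HFD and 1003 and 1143 CPM in I3A livers (0.41 ± 0.12, SE).

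All 16 genes listed as regulators were tested, with 1 higher and 2 lower at an unadjusted p under 0.05 (median -0.050), beside the same 6.66% and 6.24% of all tested genes. The count was 2 higher and 0 lower without HFD 334 (all genes 14.7%) or without I3A 305 (all genes 5.44%), and 1 and 2 without HFD 335 or without I3A 303. Ppargc1a, a coactivator of PPAR-alpha, measured 6.82 and 9.08 CPM in HFD and 16.9 and 16.5 CPM in I3A livers (log2 difference 1.07 ± 0.19, SE; not past the adjusted threshold in edgeR, adjusted p = 0.0100 in DESeq2). Nr1i2, the xenobiotic receptor PXR, for which Cd36 is a known target, measured 115 and 103 CPM in HFD and 91.9 and 78.0 CPM in I3A livers, and Nfe2l2 46.1 and 41.9 against 37.5 and 31.9 CPM. Ppara itself overlapped between the groups (178 and 145 CPM in HFD, 158 and 143 CPM in I3A), as did Pparg (6.56 and 5.27 CPM in HFD, 6.03 and 5.74 CPM in I3A). Their log2 differences were -0.099 ± 0.13 and -0.0059 ± 0.23 (SE).

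**Figure D5:**
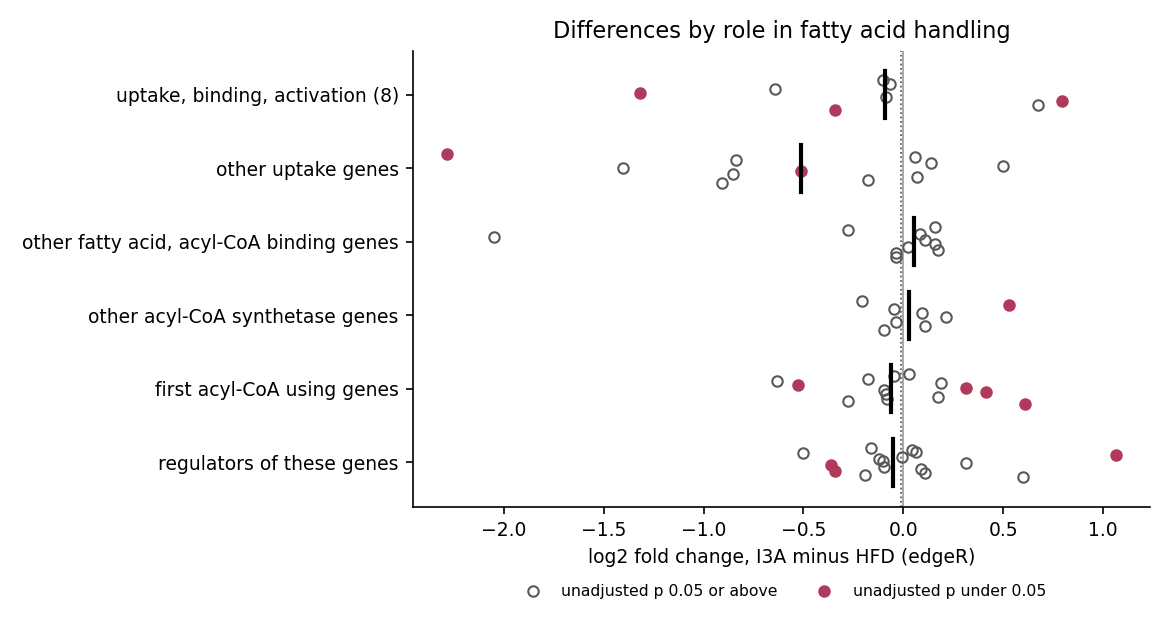
Log2 fold change of I3A minus HFD (horizontal axis, edgeR) for each tested gene of the set of 8 and of the 5 further lists, with filled points at an unadjusted p under 0.05 and black bars at list medians; the dotted line is the median of all tested genes. Medians lie between -0.092 and 0.054 except for other uptake genes (-0.51).

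Genes with the most similar profile were sought among 7300 others with a mean of at least 10 CPM, by the distance between log2 CPM centred on each gene's mean over the 4 libraries. With 4 libraries many genes can resemble one another, so the likeness is a description. Cd36 was closest to Slc25a25, a mitochondrial carrier of ATP and magnesium, at a distance of 0.194 (161 and 271 CPM in HFD, 91.5 and 92.0 CPM in I3A). Id3 (0.333) and Steap4 (0.345) followed. Fabp1 was closest to Srd5a1, a steroid reductase (0.0857), Pex11a, a peroxisome proliferation gene (0.0894), and Adh7 (0.0976). Pex11a measured 202 and 188 CPM in HFD and 159 and 95.8 CPM in I3A livers, the lowest in I3A 305 as for Fabp1. Acsl1 was closest to Smarcal1 (0.0211), Lect2 (0.0366) and Pgs1 (0.0403), and 429 genes lay within 0.2 of it, against 12 for Fabp1 and 1 for Cd36.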

How the data were processed

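Liver RNA was extracted with Trizol and made into libraries with a NEBNext Ultra kit, per the labels' protocols, which do not state that the kit marks strand. Counts per gene were made by the authors with HISAT2 and featureCounts 1.5.0-p3 on GRCm38, per the submitters' processing notes, and were deposited as raw counts with gene positions and lengths. Not given in the sources used here are the annotation release, whether counting used strand, and the handling of multi-mapping reads. Start and end of all 8 genes match GENCODE M21.

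The 4 libraries were grouped by their titles. The counts were fitted in edgeR 4.0.16 (R 4.3.3): filterByExpr with a minimum of 10 counts, TMM scaling, group as the only term of a quasi-likelihood fit, 2-sided tests, and Benjamini-Hochberg adjustment over all tested genes at 0.05. The SE was taken as the log2 fold change divided by the square root of F. Log2 CPM for profiles used a prior count of 2. Marker sums were scaled by library totals. Alternatives were other scalings and filters, a robust fit, DESeq2 1.42.0, limma-voom (limma 3.58.1) and each library left out, and edgeR, DESeq2 and limma-voom were tested on simulated data.

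The genes and lists were chosen with earlier results of these data known. The 8 genes were all named, along with the 3 of each further list with the smallest unadjusted p, Ppara, Pparg, Cpt1a, Dbi and the 3 most similar genes for Cd36, Fabp1 and Acsl1; 1 gene that this rule would name is not reported here. The column for gene length was used to compare genes per length.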

Additional observations from a re-analysis of the deposited data

How the results depend on the processing

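The number of genes past an adjusted p of 0.05 was 0 in edgeR with TMM, RLE, upper quartile or library total scaling, with at least 10 counts in every library, with a robust fit, and in limma-voom. It was 335 in DESeq2 (181 higher, 154 lower) and 619 in edgeR without a filter (232 higher, 387 lower); with 1 library left out it ran from 0 (without I3A 305) to 343 (without HFD 334), with 21 without HFD 335 and 43 without I3A 303. In those fits the lone library of a group is assumed to vary like the others. Of the 8 genes, 5 had an unadjusted p under 0.05 without a filter (10.8% of all genes tested), and between 2 and 4 with 1 library left out: 2 without HFD 334 (14.7%), 3 without HFD 335 (10.1%), 4 without I3A 303 (11.2%) and 2 without I3A 305 (5.44%). Among 96 values of the 8 genes under the alternatives, 4 turned sign, all of genes near 0. With 1 library left out Slc27a2 ran from -0.13 to 0.0038 (without I3A 305), Acsl5 from -0.22 to 0.052 (without I3A 305) and Slc27a4 from -0.24 to 0.068 (without HFD 334), with 0.0090 without I3A 303. In 5 the gene passed the threshold: Cd36 in DESeq2, without a filter and without HFD 334, and Acsl4 in DESeq2 and without a filter. Without HFD 334 Cav1, Lpl, Mfsd2a, Fabp3, Fabp4 and Ahr of the further lists passed as well, with HFD 335 as the one HFD library. Without HFD 335 none of the 6 passed: Cav1 went from -1.68 to 0.94, Lpl from -2.17 to 0.43, Fabp4 from -2.86 to 0.056, Mfsd2a from 0.92 to 0.18 and Ahr from 1.14 to 0.21 on the log2 scale, and Fabp3, with 0 to 2 counts in each of the other libraries, was not tested. No paired analysis was possible because the groups share no replicate numbers. With 2 libraries a group, intervals rather than depth limit what can be seen: the 8 genes held from 110 to 72092 counts a library.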
